A study of Homo sapiens with 36 samples.

Results

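ATP-binding cassette (ABC) proteins were followed across all 12 groups of the study. They were taken by name, as every gene of the count table that is marked protein-coding and whose symbol is ABC, a letter from A to G and a number, and this gave 46 members of 61805 named genes. The rule itself used no measured value, but the family was chosen with earlier results of these data known. ABC proteins with other names (TAP1, TAP2 and CFTR) are not members. The study sequenced polyadenylated RNA from prostate cancer cells in 36 libraries, 3 per group. LNCaP came from a lymph node metastasis and responds to androgen, and 42D descends from it and grows in the presence of the antiandrogen enzalutamide. 42D was sampled as the lines sgT33-5 and NT3. LNCaP was sampled as sgT33-5, sgT33-5_MC_C2, sgT33-5_MC_F2 and NT3, and the lines ending in C2 and F2 are called so here. None of these names is spelled out in the labels. Because the study is on loss of TRIM33, sgT33-5 is taken to target that gene and NT3 to be the non-targeting control, and whether C2 and F2 are clones is not stated. All lines were held for 3 days in medium with 5% hormone-stripped serum and then received either 5 nM R1881, a synthetic androgen, or DMSO, its vehicle, for 6 h. The labels do not say whether replicates were separate cultures, so p-values measure the spread between these libraries, which may be technical.

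ABC proteins bind and hydrolyse ATP, and most use it to move a substrate across a membrane. The A subfamily and several G members move sterols and phospholipids, the B and C subfamilies hold the drug, conjugate and bile salt pumps as well as mitochondrial carriers, D members serve peroxisomes and lysosomes, and E and F members have no membrane domain and act in translation. Prostate epithelium is known for ABCC4 (MRP4), which exports prostaglandins, cyclic nucleotides and steroid conjugates, and for cholesterol handling through ABCA1 and ABCG1, whose genes are classic targets of the liver X receptors (LXR).

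The libraries held 13900744 to 19793268 counts. TRIM33 averaged 57.3 CPM in 42D sgT33-5 against 84.5 CPM in 42D NT3 with DMSO, and 35.1 to 47.8 CPM in the 3 LNCaP guide lines against 93.3 CPM in LNCaP NT3, where CPM stands for counts per 1000000 counts of the library, with TMM scaling. Of 11 luminal prostate markers, all were present in every library, while TP63, KRT5, KRT14 and KRT15, which mark basal cells, summed to at most 0.613 CPM and PTPRC, CD3E, CD14 and LYZ, which mark leukocytes, to at most 1.13 CPM. Of the fibroblast and endothelial markers, PDGFRA, COL1A2 and PECAM1 stayed at or under 0.133 CPM, while COL1A1 reached 35.5 CPM and VWF 22.7 CPM. Of 5 neuroendocrine markers, CHGA stayed at or under 0.066 CPM and INSM1 had no counts, while ENO2 reached 107 CPM, SYP 5.91 CPM and NCAM1 39.7 CPM. Mitochondrial transcripts took 2.40% and 2.14% of the counts in 2 LNCaP sgT33-5 libraries, R1881 replicate 1 and DMSO replicate 3, while all remaining LNCaP libraries held 4.16% to 6.66%. Results of that line were therefore also computed without this pair.

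Of the members, 30 were expressed highly enough to be tested in LNCaP and 28 in 42D, where ABCC2 and ABCC11 fell under the expression filter. The 16 members that were tested in neither cell line were ABCA4, ABCA6, ABCA8, ABCA9, ABCA10, ABCA13, ABCB1, ABCB4, ABCB5, ABCC3, ABCC9, ABCC12, ABCD2, ABCG5, ABCG8 and the readthrough gene ABCF2-H2BK1. With ABCC2 and ABCC11, these were the 18 members whose mean stayed under 1 CPM in every group. Of them, 3 (ABCG5, ABCG8 and ABCF2-H2BK1) had no count in any library. ABCB1, the P-glycoprotein of multidrug resistance, had 19 counts over all 36 libraries and no count in 26 of them. The tested members held, leaving the readthrough gene aside, all 4 ABCE and ABCF genes, all 4 mitochondrial members and 9 of the 13 drug, conjugate and bile salt pumps, but 8 of the 17 lipid and sterol exporters.

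Per kilobase of exon, ABCC4 was the most abundant member in both NT3 lines with R1881, at 39.8 ± 1.7 CPM per kb in 42D and 28.5 ± 1.98 CPM per kb in LNCaP (SD, n = 3). With DMSO it stood at 13.4 ± 0.956 CPM per kb in 42D, the eighth place, and was not among the first 10 in LNCaP. In LNCaP NT3 with R1881, ABCE1, which recycles ribosomes, followed at 24.8 ± 0.358 CPM per kb and ABCF1, a translation factor, at 24.4 ± 0.216 CPM per kb, and these neighbours differed by about their spread. In 42D NT3 with DMSO, ABCE1 stood at 26.4 ± 0.26 CPM per kb. Of the summed CPM of all members, ABCC4 took 18.7% ± 0.447 with R1881 against 7.54% ± 0.365 with DMSO in 42D NT3, and 15.7% ± 0.701 against 5.05% ± 0.265 in LNCaP NT3. In C2 these shares were 7.18% ± 0.469 with R1881 and 3.07% ± 0.207 with DMSO, the lowest of the 6 lines in either treatment.

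The comparison of R1881 with DMSO, 3 libraries against 3, asked in each line which genes respond to androgen within 6 h. Of the members, 6 were called in the same direction in all 6 lines, though in C2 only the call of ABCC4 stood whichever library was left out. ABCC4 and ABCC1, both efflux pumps for conjugated substrates, rose, and ABCA1, ABCG1, ABCA12 and ABCB11 fell. In every line the R1881 libraries and the DMSO libraries of these members did not overlap. Such separation was also seen without a call, as ABCA5, ABCD3 and ABCF3 each did not overlap in 4 lines and were called in 2. The share of all genes that did not overlap was not computed. Among the 14417 genes tested in all 6 lines, 380 (2.64%) were higher in all 6 and 168 (1.17%) lower in all 6, and 28 members were among those tested.

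By line, 12 of 28 tested members passed an adjusted p of 0.05 in 42D sgT33-5 (5 higher and 7 lower), as did 27.3% of all genes (14.1% higher and 13.2% lower). In 42D NT3 it was 14 of 28 members (7 higher and 7 lower) and 25.3% of all genes (13.9% higher and 11.4% lower). In LNCaP the counts were out of 30 members. They were 6 in sgT33-5 (2 higher and 4 lower), against 12.5% of all genes (6.78% higher and 5.70% lower), and 6 in C2 (2 higher and 4 lower), against 5.66% of all genes (3.60% higher and 2.06% lower). F2 had 7 (2 higher and 5 lower), against 10.4% of all genes (6.40% higher and 3.98% lower), and NT3 had 8 (3 higher and 5 lower), against 13.2% of all genes (8.00% higher and 5.15% lower). The median log2 fold change over the tested members lay between -0.085 and 0.051 in the 6 lines, and over all tested genes between -0.015 and -0.0009. The LNCaP sgT33-5 count was also 6 without the pair of low mitochondrial share.

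**Figure D1:**
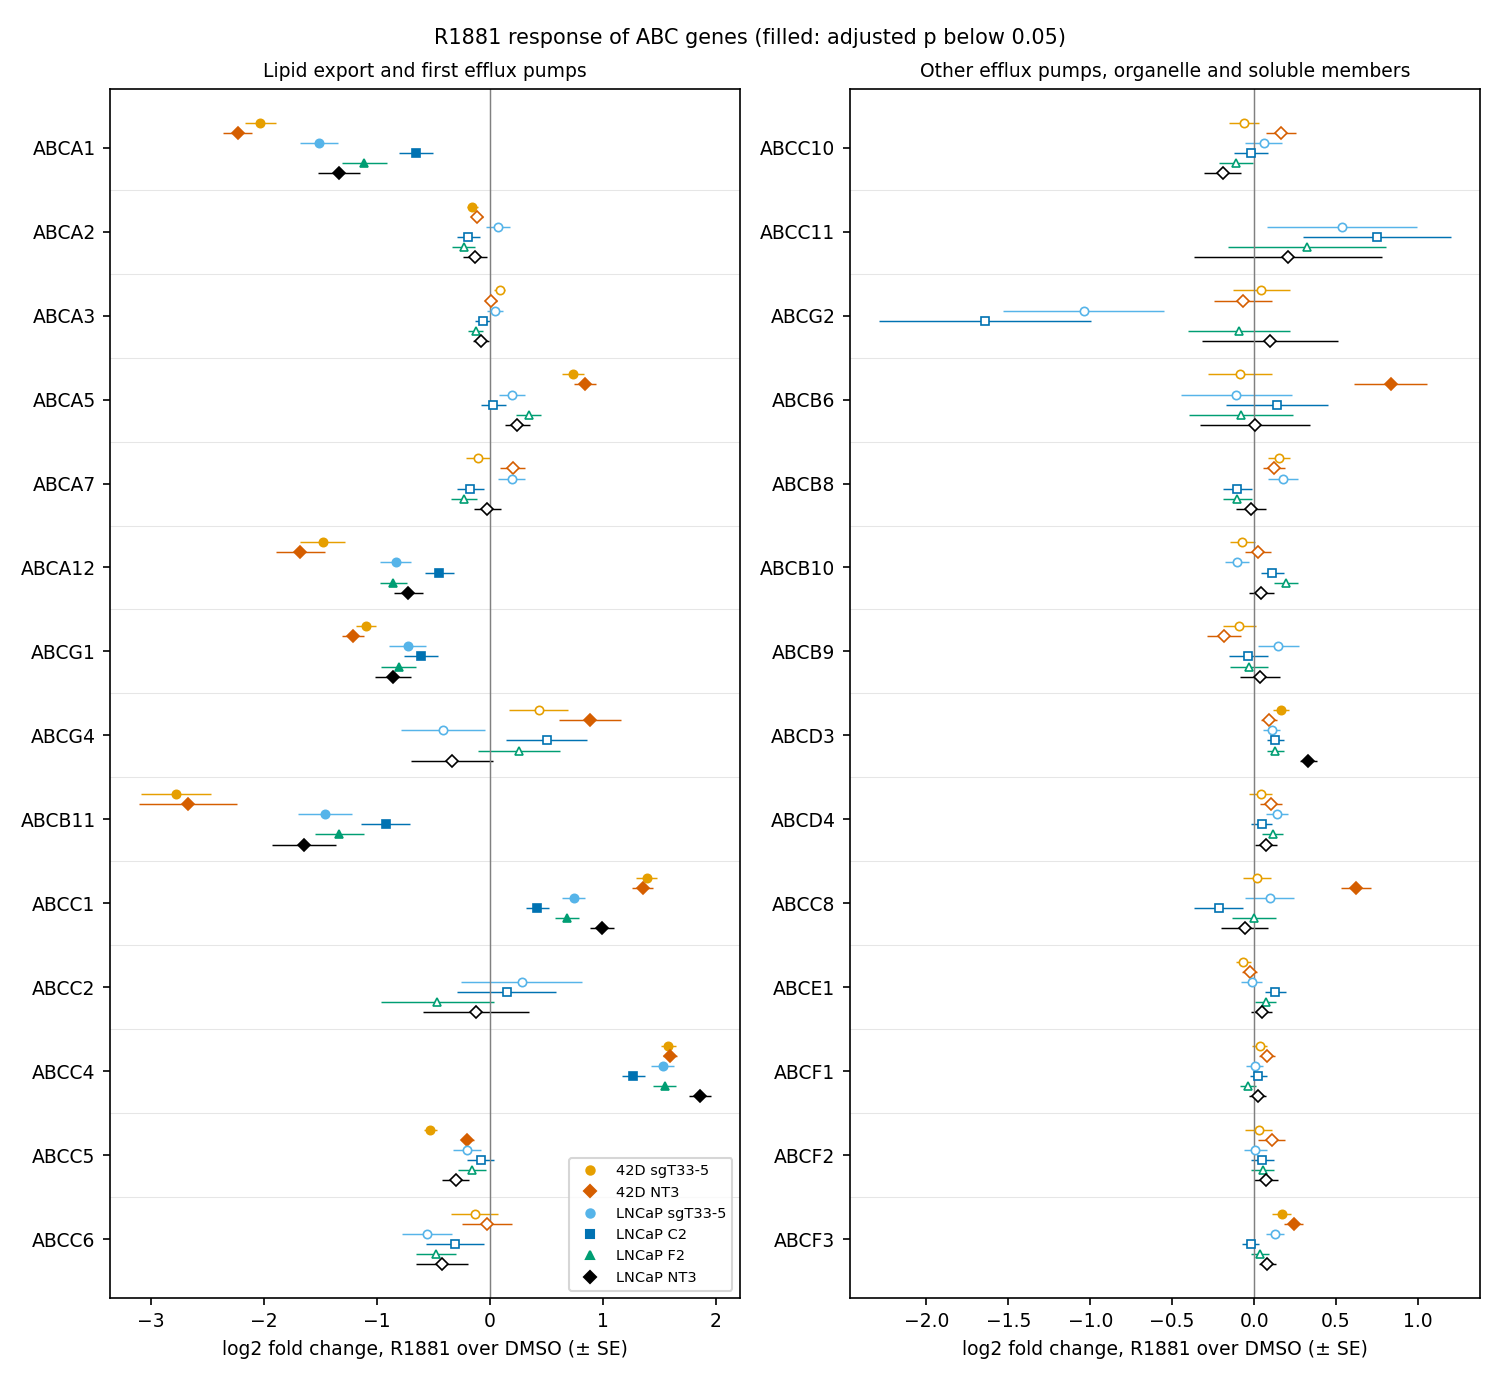
Log2 fold change of R1881 over DMSO for 28 tested ABC genes, grouped by role, with 1 point and its standard error per line (3 libraries against 3). Filled points passed an adjusted p of 0.05. ABCC4 and ABCC1 lie right of 0 in every line, and ABCA1, ABCA12, ABCG1 and ABCB11 left of it, while most other members lie close to 0.

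ABCC4 (chr13:95019835-95301475, positions on GRCh38) gave 348, 401 and 396 CPM with R1881 and 122, 138 and 124 CPM with DMSO in 42D sgT33-5. In 42D NT3 it gave 330.0, 342 and 359 CPM with R1881 and 109.8, 112 and 125 CPM with DMSO. In bulk samples such as these, fewer cells with a transcript and less of it per cell cannot be told apart. The lowest R1881 library of each 42D line stood far above its highest DMSO library. LNCaP sgT33-5 had 163, 188 and 212 CPM with R1881 and 60.5, 61.3 and 72.2 CPM with DMSO, and the lowest of its R1881 values came from the library of low mitochondrial share. C2 had 95.9, 97.4 and 114 CPM with R1881 and 42.2, 39.7 and 44.7 CPM with DMSO, the lowest levels of any line in each treatment. F2 had 174, 223 and 197 CPM with R1881 and 66.2, 71.2 and 64 CPM with DMSO. LNCaP NT3 had 234, 266 and 238 CPM with R1881 and 65.2, 64.1 and 72.8 CPM with DMSO. Log2 fold changes were 1.58 in 42D sgT33-5, 1.6 in 42D NT3, 1.53 in LNCaP sgT33-5, 1.27 in C2, 1.55 in F2 and 1.86 in LNCaP NT3. The lowest of these, in C2, had an SE of 0.10 and an adjusted p of 8.87e-09, and the call stood in every line under every alternative setting run.

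ABCC1 (chr16:15949138-16143257), the pump MRP1, exports glutathione conjugates and leukotriene C4. It gave 208, 246 and 269.6 CPM with R1881 and 84.8, 97.5 and 94.4 CPM with DMSO in 42D sgT33-5, and 225, 236 and 263 CPM with R1881 and 96.1, 91.2 and 99.4 CPM with DMSO in 42D NT3. In LNCaP NT3 the values were 167, 182 and 162 CPM with R1881 and 78.5, 84.3 and 91.9 CPM with DMSO. The DMSO levels of the 6 lines were alike, with means of 84.9 to 95.6 CPM, and the lines differed more with R1881. LNCaP sgT33-5 reached 118, 151 and 168 CPM with R1881, F2 127, 166 and 152 CPM and C2 109, 125 and 122 CPM. Log2 fold changes were 1.39 in 42D sgT33-5, 1.36 in 42D NT3, 0.74 in LNCaP sgT33-5, 0.42 in C2, 0.68 in F2 and 1 in LNCaP NT3. ABCC6 lies 6307 bases from ABCC1 on chromosome 16 and did not pass the test with R1881 in any line, with log2 fold changes of -0.56 to -0.024.

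**Figure D2:**
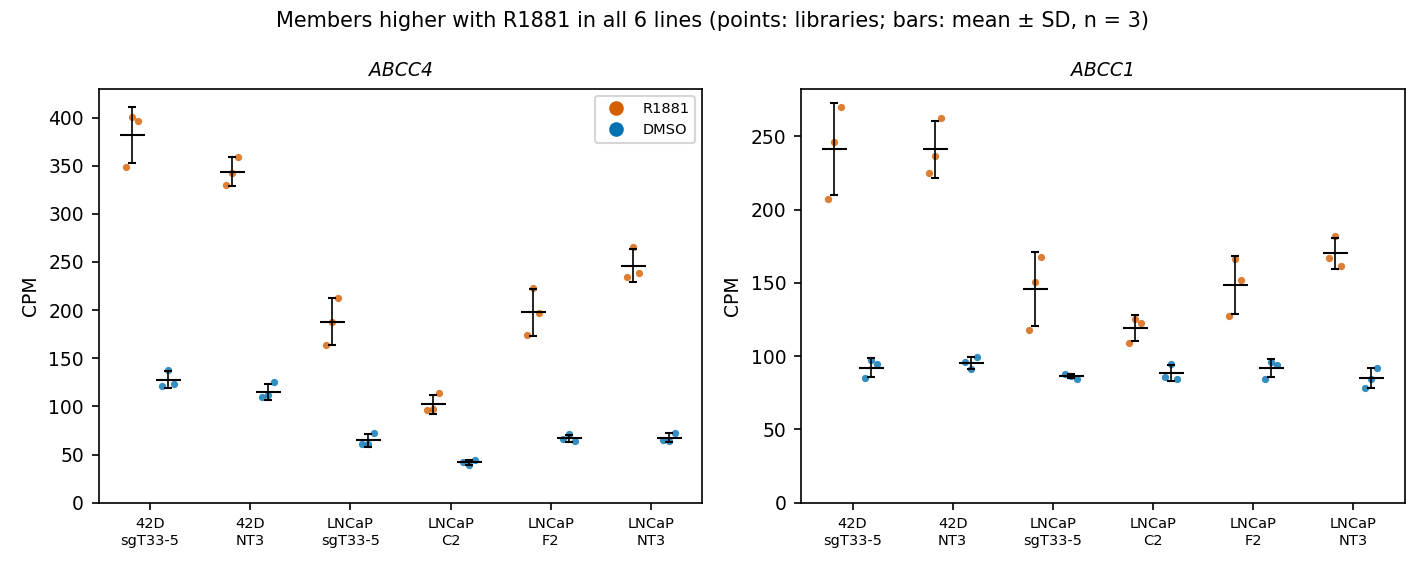
CPM of ABCC4 and ABCC1 in each library (points) with the mean and SD of the 3 libraries (bars), by line, with R1881 left of DMSO. In every line the R1881 libraries lie above the DMSO libraries, and with R1881 the mean of C2 is the lowest of the 6 lines for both genes.

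The 4 members that fell in all 6 lines belong to lipid and bile salt export. ABCA1 (chr9:104781006-104928155) loads cholesterol and phospholipid onto apolipoprotein A-I, and ABCG1 (chr21:42199689-42297244) passes cholesterol to mature high-density lipoprotein. ABCA12 (chr2:214931542-215138626) is the lipid carrier of skin lamellar granules that is mutated in harlequin ichthyosis. ABCB11 (chr2:168915498-169031324) is the bile salt export pump of the liver. The hepatocyte markers ALB, APOA1 and CYP3A4 summed to 0.467 to 1.01 CPM with R1881 and 0.597 to 1.32 CPM with DMSO in 42D NT3. In LNCaP NT3 they summed to 5.21 to 8.28 CPM with R1881 and 4.98 to 9.17 CPM with DMSO, nearly all of it ALB. In 42D NT3 with R1881, ALB averaged 0.492 CPM and APOA1 0.205 CPM. With DMSO they averaged 0.757 CPM and 0.235 CPM there. CYP3A4 stayed at or under 0.215 CPM.

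The starts of 3 of these genes and of ABCC4 are shown because each kept its direction in all lines, ABCC4 upward and the others downward. RefSeq promoter windows (GRCh38.p14), from 250 bases before to 50 bases after the annotated start, were at hand for 36 of the 46 members but not for ABCC1 and ABCG1. Each is printed 5′ to 3′ on the gene's strand, the minus strand in all 4 cases. Capitals mark, on either strand, AGAACA or its complement TGTTCT, which is part of the longer palindrome of steroid hormone response elements, AGGTCA, or a loose form of DR4, the repeat that LXR binds, drawn wide enough to take the known element of ABCA1. The windows are chr13:95301402-95301701 for ABCC4, chr9:104928106-104928405 for ABCA1, chr2:215138577-215138876 for ABCA12 and chr2:169031275-169031574 for ABCB11.
ABCC4: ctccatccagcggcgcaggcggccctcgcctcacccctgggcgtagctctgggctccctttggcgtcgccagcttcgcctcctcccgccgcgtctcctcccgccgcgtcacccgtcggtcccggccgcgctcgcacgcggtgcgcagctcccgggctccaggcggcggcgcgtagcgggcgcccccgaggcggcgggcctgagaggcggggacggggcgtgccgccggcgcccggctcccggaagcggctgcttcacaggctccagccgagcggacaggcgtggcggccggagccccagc
ABCA1: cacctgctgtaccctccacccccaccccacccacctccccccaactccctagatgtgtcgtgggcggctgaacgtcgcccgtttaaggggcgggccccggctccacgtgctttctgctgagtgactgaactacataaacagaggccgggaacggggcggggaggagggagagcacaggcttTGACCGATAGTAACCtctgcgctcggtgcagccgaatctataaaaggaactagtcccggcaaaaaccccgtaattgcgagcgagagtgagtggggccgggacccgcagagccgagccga
ABCA12: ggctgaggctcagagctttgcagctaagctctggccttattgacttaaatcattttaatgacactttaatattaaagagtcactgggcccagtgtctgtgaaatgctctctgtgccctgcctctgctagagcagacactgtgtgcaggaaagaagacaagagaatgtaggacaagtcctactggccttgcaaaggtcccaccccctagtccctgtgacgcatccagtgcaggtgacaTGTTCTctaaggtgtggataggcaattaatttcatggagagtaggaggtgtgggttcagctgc
ABCB11: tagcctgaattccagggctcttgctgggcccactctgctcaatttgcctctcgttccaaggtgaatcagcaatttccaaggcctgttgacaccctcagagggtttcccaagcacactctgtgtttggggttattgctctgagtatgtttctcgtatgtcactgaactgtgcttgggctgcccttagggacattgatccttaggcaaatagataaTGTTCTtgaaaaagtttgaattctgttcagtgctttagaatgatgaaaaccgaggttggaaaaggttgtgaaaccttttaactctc
ABCA1 held the loose DR4 on the other strand, its first base at -69 from the start. As the pattern was drawn to take this element, its match in ABCA1 was fixed in advance. The pattern was present in 84 (0.239%) of 35116 windows of this length and in 1 of the 54 windows of members. ABCA1 also held the palindrome CACGTG (7.26% of windows) and 3 copies of GGGCGG (45% of windows, both strands counted). ABCA12 and ABCB11 each held TGTTCT, at -13 and -36 from the start, a match found in 14.8% of all windows and in 10 of the 54 of members. The window of ABCC4 held none of the motifs searched, which also included AGGTCA (13.8% of windows) and that full palindrome (1 window in all). These are matches of letters and not measured binding sites.

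ABCA1 gave 5.48, 7.04 and 4.09 CPM with R1881 and 22.8, 21.2 and 24.3 CPM with DMSO in 42D sgT33-5, and 7.20, 5.48 and 5.82 CPM with R1881 and 27.5, 27.7 and 32.4 CPM with DMSO in 42D NT3. In LNCaP NT3 it gave 4.27, 3.79 and 2.40 CPM with R1881 and 9.46, 9.69 and 7.18 CPM with DMSO. With R1881 the 42D libraries came down to about the lowest DMSO library of LNCaP NT3 or below it. C2 kept the highest R1881 level of the LNCaP lines, at 8.40, 8.05 and 7.11 CPM against 11.5, 13.1 and 12.1 CPM with DMSO. Log2 fold changes were -2.03 in 42D sgT33-5, -2.23 in 42D NT3, -1.51 in LNCaP sgT33-5, -0.65 in C2, -1.11 in F2 and -1.33 in LNCaP NT3. The largest fall, in 42D NT3, had an SE of 0.13 and an adjusted p of 3.49e-11.

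ABCG1 gave 14.9, 11.8 and 13.1 CPM with R1881 and 28.2, 28.8 and 28.3 CPM with DMSO in 42D sgT33-5, and 12, 11.4 and 9.37 CPM with R1881 and 26.6, 26.7 and 23.6 CPM with DMSO in 42D NT3. In LNCaP NT3 the values were 15.6, 13.3 and 11.3 CPM with R1881 and 26.6, 24.5 and 21.3 CPM with DMSO. Unlike ABCA1, it stood at similar levels in all lines, with means of 10.9 to 16.8 CPM with R1881 and 21.6 to 28.4 CPM with DMSO. Its log2 fold changes were -1.09 in 42D sgT33-5, -1.21 in 42D NT3, -0.73 in LNCaP sgT33-5, -0.61 in C2, -0.80 in F2 and -0.86 in LNCaP NT3.

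ABCA12 was low in 42D, at 0.933, 1.07 and 0.857 CPM with R1881 and 2.63, 2.99 and 3.74 CPM with DMSO in NT3, and higher in LNCaP NT3, at 7.71, 5.51 and 7.21 CPM with R1881 and 12, 9.54 and 11.9 CPM with DMSO. Its log2 fold changes were -1.48 in 42D sgT33-5, -1.68 in 42D NT3, -0.83 in LNCaP sgT33-5, -0.45 in C2, -0.86 in F2 and -0.72 in LNCaP NT3. The C2 call did not stand in any of its 6 leave-one-out refits. The noncoding gene SNHG31 overlaps ABCA12 and averaged 10.1 CPM, and whether counting used strand is not stated, so reads of the pair may be shared.

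ABCB11 gave 0.67, 0.817 and 0.198 CPM with R1881 and 3.79, 4.90 and 3.14 CPM with DMSO in 42D sgT33-5. In 42D NT3 it had 2, 4 and 6 counts with R1881 and 22, 23 and 33 counts with DMSO, so its fold change there rests on few reads. LNCaP NT3 gave 2.74, 2.39 and 3.74 CPM with R1881 and 9.87, 7.75 and 9.90 CPM with DMSO, and every LNCaP guide line had a higher mean in each treatment. The highest were F2, at 11.5, 6.01 and 6.36 CPM with R1881 and 24.6, 18.1 and 16.7 CPM with DMSO, and C2, at 9.63, 8.95 and 7.26 CPM with R1881 and 16.8, 17.3 and 14.4 CPM with DMSO. Log2 fold changes with R1881 were -2.78 in 42D sgT33-5, -2.67 in 42D NT3, -1.46 in LNCaP sgT33-5, -0.92 in C2, -1.33 in F2 and -1.65 in LNCaP NT3.

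**Figure D3:**
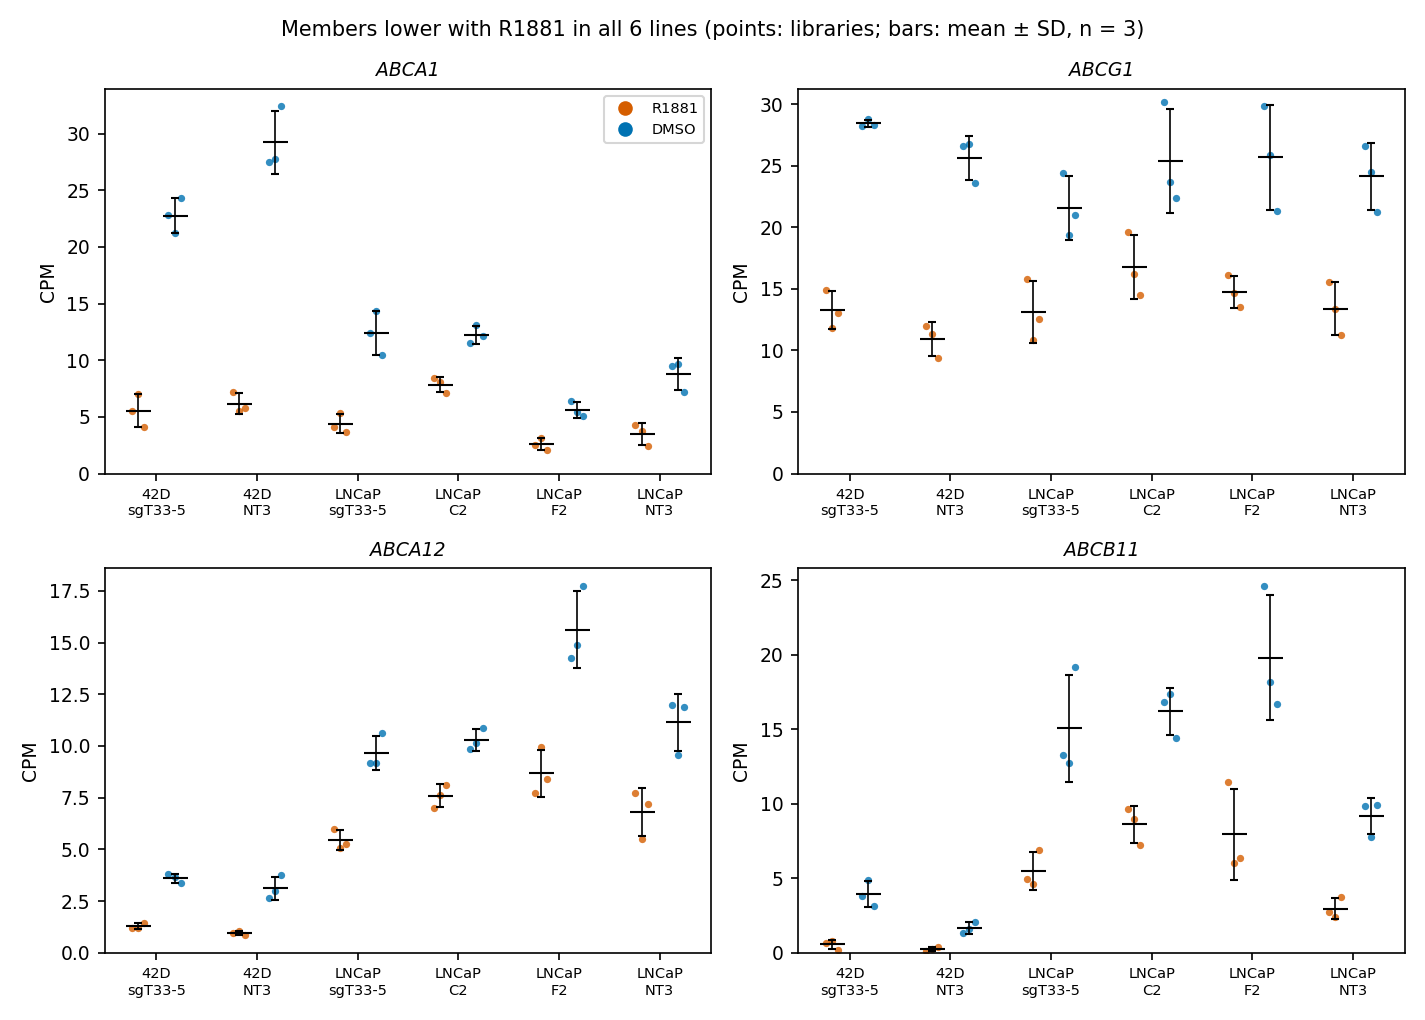
CPM of ABCA1, ABCG1, ABCA12 and ABCB11 in each library (points) with the mean and SD of the 3 libraries (bars), by line, with R1881 left of DMSO. The R1881 libraries lie below the DMSO libraries in every line. ABCA1 is highest in 42D with DMSO, ABCA12 and ABCB11 are higher in LNCaP, and ABCG1 is similar throughout.

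The C2 calls depended most on which libraries were included. Apart from ABCC4, each C2 call was lost when certain libraries were left out. That of ABCA12 was lost in all 6 leave-one-out refits (adjusted p of 0.0543 to 0.191). Without R1881 replicate 3 the count was 2 in place of 6, and ABCA1 (-0.56, adjusted p = 0.0583), ABCB11 (-0.79, adjusted p = 0.0688), ABCG1 (-0.49, adjusted p = 0.102) and ABCA12 (-0.48, adjusted p = 0.0543) no longer passed. The count was 3 without R1881 replicate 2, without DMSO replicate 1 or without DMSO replicate 2, and ABCC1 was lost without R1881 replicate 2 (adjusted p = 0.0722), DMSO replicate 1 (adjusted p = 0.064) or DMSO replicate 3 (adjusted p = 0.0574).

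Among organelle members, ABCD3, the PMP70 protein that takes bile acid precursors and branched fatty acids into peroxisomes, rose in LNCaP NT3, to 126, 136 and 127 CPM with R1881 against 109, 103 and 95.6 CPM with DMSO, a log2 fold change of 0.33 (SE 0.052, adjusted p = 2.94e-05). It also rose in 42D sgT33-5 (0.16, SE 0.05, adjusted p = 0.017), a call lost in 2 leave-one-out refits, without R1881 replicate 1 or DMSO replicate 1 (adjusted p = 0.0567 and 0.121).

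Further calls came from 42D. ABCA5, a lysosomal and late endosomal lipid carrier, rose in both 42D lines, to 17.8, 16.5 and 20.6 CPM with R1881 against 11.9, 10.2 and 10.9 CPM with DMSO in sgT33-5 and to 19.1, 18.2 and 19.7 CPM against 11.1, 9.86 and 11.2 CPM in NT3, log2 fold changes of 0.74 (SE 0.097) and 0.84 (SE 0.097) that stood in every setting run. ABCC5 (MRP5), which exports cyclic nucleotides and nucleotide analogues, fell by 0.53 (SE 0.057) in 42D sgT33-5 and by 0.20 (SE 0.057) in 42D NT3, and the NT3 call was lost without R1881 replicate 1 (adjusted p = 0.0678). ABCC8, the sulfonylurea receptor of ATP-sensitive potassium channels, rose in 42D NT3 to 27.7, 33.2 and 29 CPM with R1881 against 19, 21.7 and 18.8 CPM with DMSO, whereas 42D sgT33-5 had 28.8, 29.7 and 27.4 CPM and 30.2, 30 and 24.7 CPM. The DMSO libraries of sgT33-5 overlapped the R1881 libraries of NT3. ABCF3, which has no membrane domain, rose by 0.17 in 42D sgT33-5 and 0.24 in 42D NT3.

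The remaining 42D calls were small or rested on low levels. ABCB6, a porphyrin carrier, rose in NT3 by 0.83 (SE 0.22) at 2.41 ± 0.589 CPM with R1881 and 1.38 ± 0.0571 CPM with DMSO (SD, n = 3), and was lost without R1881 replicate 2 (adjusted p = 0.0742). ABCG4, a sterol exporter known from brain, rose in NT3 by 0.89 at 2.16 ± 0.656 CPM with R1881 and 1.18 ± 0.0716 CPM with DMSO, a call that DESeq2 did not make (adjusted p = 0.0561) and that 4 of 6 leave-one-out refits lost. ABCA2, a lipid carrier of lysosomes, fell in sgT33-5 by 0.15. The sgT33-5 calls of ABCF3 and ABCA2 were lost in 4 and 2 leave-one-out refits. With the replicate number as a block, which pairs the libraries in both 42D lines and in F2, ABCA2 (-0.11, adjusted p = 0.0238) and ABCA7 (0.20, adjusted p = 0.0259) also passed in 42D NT3, the mitochondrial ABCB8 (0.15, adjusted p = 0.0445) in 42D sgT33-5, and ABCA5 (0.34, adjusted p = 0.0176) and ABCC6 (-0.48, adjusted p = 0.0248) in F2. ABCE1, ABCF1 and ABCF2 were called in none of the 6 lines, and their log2 fold changes stayed between -0.067 and 0.13.

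Genes that work with these members were read from lists chosen with earlier results of these data known. Of 14 tested sterol and LXR genes, 2 were higher and 4 lower with R1881 in 42D sgT33-5, 2 and 5 in 42D NT3, 2 and 2 in LNCaP sgT33-5, 2 and 0 in C2, 2 and 1 in F2 and 2 and 1 in LNCaP NT3. The shares of all genes called in these lines were 27.3%, 25.3%, 12.5%, 5.66%, 10.4% and 13.2%, in the same order of lines, and apply to each list described here. NPC1, which releases cholesterol from lysosomes, fell in 42D sgT33-5 (-0.48) and 42D NT3 (-0.29) and rose in LNCaP sgT33-5 (1), C2 (0.82), F2 (0.66) and NT3 (1.08). Of other LXR targets, LPCAT3 fell in both 42D lines (-0.25 in sgT33-5 and -0.32 in NT3) and in LNCaP sgT33-5 (-0.38) and NT3 (-0.38), and MYLIP fell in both 42D lines and in LNCaP sgT33-5, by 0.36 to 0.39. The LXR genes themselves, NR1H3 and NR1H2, passed the test with R1881 in no line.

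Of 14 tested regulators and partners, 7 were higher and 1 lower in 42D sgT33-5, against 14.1% of all genes higher and 13.2% lower, and 6 and 1 in 42D NT3, against 13.9% higher and 11.4% lower. In LNCaP the counts were 1 and 3 in sgT33-5 (12.5% of all genes called in either direction), 1 and 0 in C2 (5.66%), 2 and 1 in F2 (10.4%) and 2 and 1 in NT3 (13.2%). EZR, which codes for ezrin, a linker that anchors efflux pumps to actin, rose in all 6 lines, with log2 fold changes of 0.31 to 0.92. PPARGC1A, a coactivator of nuclear receptors, fell in 42D sgT33-5 (-1.10), 42D NT3 (-1.06) and LNCaP sgT33-5 (-0.71). Of the nuclear receptors on this list, NR1I2, NR1I3, NR1H4 and NR0B2 stayed at or under 0.139 CPM in every library, while PPARA, a receptor for fatty acids, stood at 28.5 to 63.2 CPM. Of 7 tested uptake and other carriers, 1 rose in 5 of the 6 lines and none in C2, and 1 fell in each of 42D sgT33-5 and 42D NT3 (SLC29A1, a nucleoside carrier) and LNCaP NT3 (SLCO4A1). The riser was SLCO2A1, the prostaglandin importer, at 3.38 CPM with R1881 and 1.45 CPM with DMSO in 42D NT3 and 4.12 CPM and 2.07 CPM in LNCaP NT3. In C2 its log2 fold change was 0.78, which did not pass. Of the ABC proteins named otherwise, TAP2 fell in 42D sgT33-5 (-0.28), TAP1 passed in no line, and CFTR was not tested, at or under 0.292 CPM.

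The comparison of each guide line with NT3 of the same cell line, within a treatment, asked what changes where TRIM33 is reduced. No member was called in the same direction in all 4 guide lines. By the direction of the fold change alone, ABCB11 was higher than NT3 in each of them in both treatments, though it did not always pass the test. The LNCaP guide lines share the NT3 libraries they are set against. Over the 8 comparisons the median log2 fold change of the tested members lay between -0.053 and 0.11, and that of all tested genes between -0.0081 and 0.0036. In LNCaP sgT33-5 with DMSO no member of 30 passed edgeR's test, where 1.40% of all genes did, although 6 had an unadjusted p under 0.05. ABCA1 and ABCE1 passed with the block, ABCA1 with no filter and ABCC5 in a fit of only the libraries compared. The nearest was ABCA1, at 12.4, 14.4 and 10.5 CPM in sgT33-5 and 9.46, 9.69 and 7.18 CPM in NT3, a log2 fold change of 0.51 (SE 0.15, adjusted p = 0.111). In 42D sgT33-5 with R1881 no member of 28 passed, where 0.513% of all genes did, with 4 at an unadjusted p under 0.05, and none passed with DESeq2.

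With R1881, LNCaP sgT33-5 had 2 of 30 members lower than NT3, beside 3.04% of all genes (0.979% higher and 2.06% lower). They were ABCC4 (-0.39, SE 0.094, adjusted p = 0.0249) and ABCD3 (-0.20, SE 0.051, adjusted p = 0.0329). Neither call stood without the 2 libraries of low mitochondrial share, of which R1881 replicate 1 enters this comparison, with an adjusted p of 0.127 for ABCC4 and 0.0947 for ABCD3. Both were also lost without NT3 replicate 1 or 2, or sgT33-5 replicate 2 (adjusted p of 0.0618 to 0.166), and in a fit of only the libraries compared (adjusted p = 0.0708 and 0.167). The numbers pair the libraries here, and with the block ABCA5 passed too, at -0.34 (adjusted p = 0.0289 with the block).

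C2 differed from NT3 in 9 of 30 members with R1881 (4 higher and 5 lower), beside 23.0% of all genes (9.67% higher and 13.3% lower), and in 7 with DMSO (4 higher and 3 lower), beside 18.2% of all genes (8.53% higher and 9.63% lower). ABCC4 was lower in both, at -1.26 (SE 0.096, adjusted p = 1.51e-09) with R1881 and -0.67 (SE 0.10, adjusted p = 7.53e-05) with DMSO, and its C2 libraries stood below all NT3 libraries of the same treatment. ABCC1 was lower with R1881, by 0.51 (SE 0.10), and with DMSO its log2 fold change was 0.062 (SE 0.10), which did not pass. ABCA1 and ABCB11 were higher in both treatments, ABCA1 by 1.17 with R1881 and 0.49 with DMSO, and ABCB11 by 1.55 with R1881 and 0.82 with DMSO. The DMSO call of ABCA1 was lost without C2 replicate 2 or 3 or NT3 replicate 3 (adjusted p of 0.0608 to 0.155), and that of ABCB11 without NT3 replicate 2 (adjusted p = 0.062). ABCA2 was higher in both, by 0.34 with R1881 and 0.40 with DMSO, and its R1881 call was lost without C2 replicate 2 or 3 or NT3 replicate 3 (adjusted p of 0.0638 to 0.0826). Of the 11 luminal prostate markers, 7 were lower in C2 and none higher in each treatment, with sums of 5050 to 5660 CPM in C2 against 10200 to 11100 CPM in NT3 with R1881 and 4010 to 4120 CPM against 6180 to 6580 CPM with DMSO, and their part in the C2 differences was not tested.

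The other C2 calls with R1881 were ABCC10 (MRP7), a pump for taxanes, higher by 0.39, and ABCC8 (-0.53), ABCD3 (-0.27) and ABCG2 (-2.54), lower. ABCG2, the breast cancer resistance protein and a marker of stem cells, rested on 4, 2 and 1 counts in C2 and 17, 8 and 10 counts in NT3. With DMSO, ABCA7, a phospholipid exporter, was higher by 0.39, and ABCC5 (-0.37) and ABCC6 (-0.76), a liver and kidney protein mutated in pseudoxanthoma elasticum, were lower. These DMSO calls were lost in 4 leave-one-out refits for ABCA7 (adjusted p of 0.0547 to 0.112), 4 for ABCC5 (0.0571 to 0.183) and 3 for ABCC6 (0.0911 to 0.156), and the R1881 call of ABCC8 was lost without C2 replicate 2 (adjusted p = 0.0603). The ABCC6 libraries of the 2 lines overlapped, and its pseudogenes ABCC6P1 and ABCC6P2 averaged 0.19 to 2.22 CPM, so reads of near-identical copies may be shared. Leaving out C2 DMSO replicate 2 took the DMSO count to 3, C2 DMSO replicate 3 or NT3 DMSO replicate 1 to 4, and the block, which pairs these libraries with R1881, took the R1881 count to 14 (7 higher and 7 lower). The members gained with the block were ABCA3 (0.16, adjusted p = 0.0331), the mitochondrial ABCB10 (0.19, adjusted p = 0.032) and ABCG1 (0.33, adjusted p = 0.0033), higher, and ABCA5 (-0.27, adjusted p = 0.0316) and ABCC6 (-0.64, adjusted p = 0.0336), lower.

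F2 differed from NT3 in 9 of 30 members with R1881 (7 higher and 2 lower), beside 13.4% of all genes (6.19% higher and 7.26% lower), and in 10 with DMSO (7 higher and 3 lower), beside 16.7% of all genes (8.94% higher and 7.73% lower). ABCB11 was higher, by 1.42 with R1881 and 1.10 with DMSO. ABCC6 was higher too, at 3.62, 3.55 and 3.65 CPM in F2 against 1.98, 1.86 and 1.47 CPM in NT3 with R1881, and 5.37, 5.20 and 4.36 CPM against 2.86, 2.30 and 1.88 CPM with DMSO. Its pseudogenes also had higher means in F2. ABCC6P1 averaged 0.836 CPM against 0.373 CPM with R1881 and 1.18 CPM against 0.558 CPM with DMSO. ABCC6P2 averaged 0.49 CPM against 0.329 CPM and 0.631 CPM against 0.288 CPM. Whether shared reads enter the ABCC6 difference was not tested. In both treatments ABCA2, ABCA3, a surfactant lipid carrier of lung, and ABCA7 were higher, by 0.31, 0.41 and 0.37 with R1881 and 0.41, 0.45 and 0.58 with DMSO. With R1881 the call of ABCA2 was lost in 4 leave-one-out refits, without replicates 1 or 2 of F2 or 1 or 3 of NT3 (adjusted p of 0.101 to 0.189), with RLE scaling (adjusted p = 0.0508) and in a fit of only the libraries compared (adjusted p = 0.0662). That of ABCA7 was lost without the same libraries (adjusted p of 0.107 to 0.203), with the replicate block (adjusted p = 0.0552) and in a fit of only the libraries compared (adjusted p = 0.0905). ABCA1 was lower in F2 with DMSO, at 6.40, 5.42 and 5.06 CPM against 9.46, 9.69 and 7.18 CPM, a log2 fold change of -0.64 (SE 0.17, adjusted p = 0.00879). That call was lost without F2 replicate 3 or NT3 replicate 1 (adjusted p = 0.0529 and 0.0528).

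ABCC4 was lower in F2 with R1881, by 0.32 on the log2 scale (SE 0.094, adjusted p = 0.0269), a call lost without R1881 replicates 1 or 3 of F2 or replicates 2 or 3 of NT3 (adjusted p of 0.0537 to 0.178). With DMSO the ABCC4 libraries of F2 and NT3 overlapped, with a log2 fold change of -0.0033 (SE 0.10). ABCD3 was lower in F2 in both treatments (-0.36 with R1881 and -0.15 with DMSO), and the DMSO call was lost in 5 of 6 leave-one-out refits. ABCC10 was higher with R1881 (0.39, lost in 4 refits, adjusted p of 0.0565 to 0.0791), ABCA12 higher with DMSO (0.49) and ABCA5 lower with DMSO (-0.34, lost in all 6 refits). The R1881 count of F2 was 4 without F2 replicate 1 and 5 without NT3 replicate 3. With DMSO the numbers pair the libraries, and the block added ABCB9, a lysosomal peptide carrier (0.30, adjusted p = 0.0305), ABCC10 (0.30, adjusted p = 0.0242) and ABCG2 (1.03, adjusted p = 0.0176), for 13 members.

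In 42D sgT33-5 with DMSO, 3 of 28 members were higher than in NT3, beside 1.13% of all genes (0.896% higher and 0.234% lower). ABCB11 stood at 3.79, 4.90 and 3.14 CPM in sgT33-5 and 1.31, 1.60 and 2.06 CPM in NT3, a log2 fold change of 1.26 (SE 0.25, adjusted p = 0.0108). It was lost without sgT33-5 replicate 2 (adjusted p = 0.108) or NT3 replicate 1 (adjusted p = 0.103), which left 1 member called. ABCB6 stood at 3.00, 2.63 and 2.23 CPM in sgT33-5 and 1.43, 1.32 and 1.37 CPM in NT3 (0.93), lost with DESeq2 (adjusted p = 0.093) and in 5 of 6 leave-one-out refits. ABCC8 (0.53, SE 0.091, adjusted p = 0.00353) was called in every setting run. ABCB11 was thus higher than NT3 with DMSO in the 42D guide line and in C2 and F2, and in LNCaP sgT33-5 its log2 fold change was 0.71 (SE 0.22, adjusted p = 0.134).

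**Figure D4:**
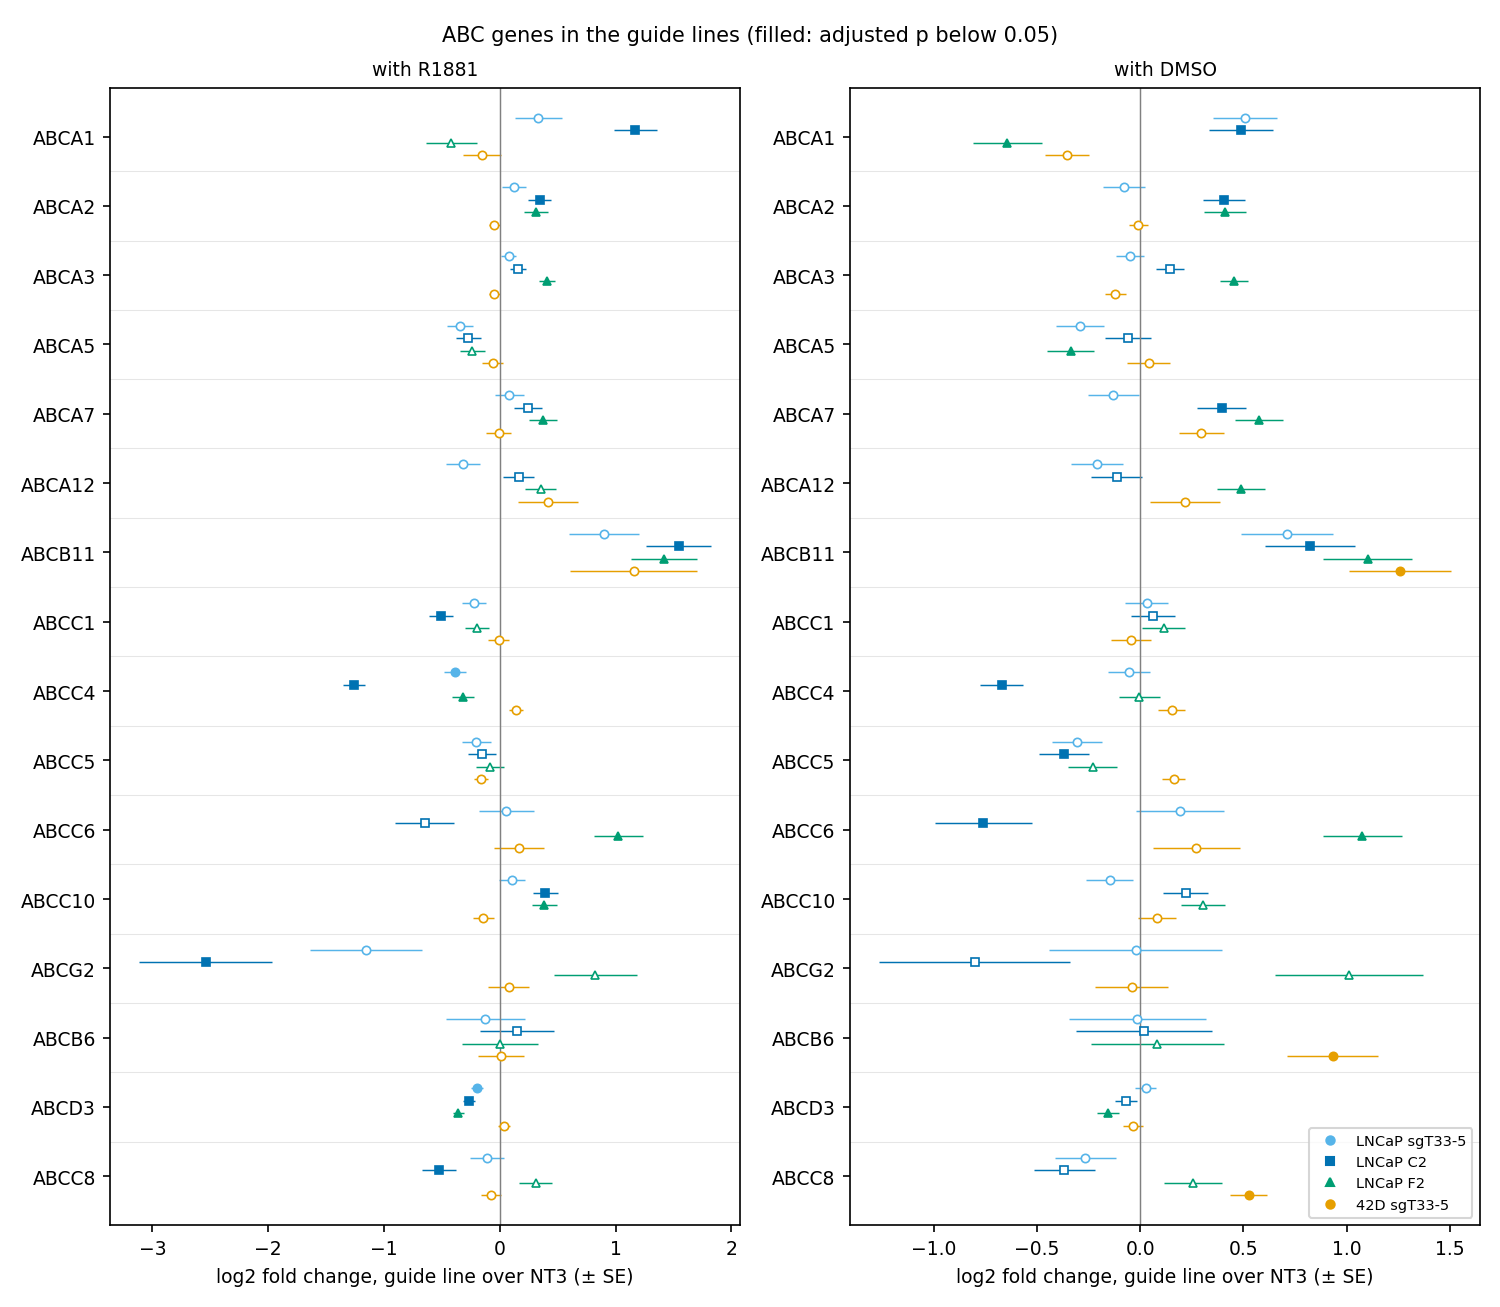
Log2 fold change of each guide line over NT3 of the same cell line, with R1881 (left) and DMSO (right), for 16 ABC genes called in at least 1 guide line, with standard errors (3 libraries against 3). Filled points passed an adjusted p of 0.05. ABCB11 lies right of 0 in every line, ABCC4 lies left of 0 in C2, and ABCA1 and ABCC6 lie on opposite sides in C2 and F2.

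Whether the R1881 response itself differed from that of NT3 was tested with an interaction term. No member passed edgeR's test in LNCaP sgT33-5, C2, F2 or 42D sgT33-5, where 0%, 0.689%, 0% and 0.123% of all genes did, and 3, 5, 3 and 3 members had an unadjusted p under 0.05. In C2 the response of ABCC4 was lower by 0.59 (SE 0.14, adjusted p = 0.0553) and that of ABCC1 by 0.57 (SE 0.15, adjusted p = 0.0879). DESeq2, no filter on low counts and a fit of only the libraries compared each called 2 members in C2 and the block 3, and the 2 were ABCC4 and ABCC1 each time. For ABCC4 the same difference was -0.33 (SE 0.14) in LNCaP sgT33-5, -0.31 (SE 0.14) in F2 and -0.012 (SE 0.089) in 42D sgT33-5. These interactions share the NT3 libraries within LNCaP. In 42D sgT33-5 the response of ABCC8 was lower by 0.6 (SE 0.12, adjusted p = 0.0584), which DESeq2 called.

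42D NT3 was compared with LNCaP NT3 to see which members differ between the resistant line and its parent. Of the members, 20 of 30 were called with R1881 (12 higher and 8 lower, where 68.9% of all genes were called) and 18 with DMSO (10 higher and 8 lower, against 68.1%). The share of members called was thus near that of all genes. Libraries of the 2 cell lines were fitted together, and culture or sequencing batches, which the labels do not give, cannot be told apart from the cell line. The 3 tested neuroendocrine markers (ENO2, SYP and NCAM1) were higher in 42D in both treatments, and the sum over the list of 5 was 124 to 130 CPM in 42D against 45.5 to 60.8 CPM in LNCaP with R1881 and 121 to 130 CPM against 47.2 to 59.3 CPM with DMSO. Of the 11 luminal markers, 7 were lower and none higher in 42D with R1881, and 7 were lower and 3 higher with DMSO, and the part of these markers in the differences of members was not tested.

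ABCG2 differed upward by the most, at 3.93, 3.81 and 4.29 CPM in 42D against 1.08, 0.531 and 0.667 CPM in LNCaP with R1881, and 4.30, 5.28 and 3.30 CPM against 0.584, 1.08 and 0.517 CPM with DMSO. The lowest 42D library held more than the highest LNCaP library in each treatment, with log2 fold changes of 2.38 (SE 0.28, adjusted p = 3.12e-09) with R1881 and 2.57 (SE 0.29, adjusted p = 5.77e-10) with DMSO. ABCA1 was higher by 0.81 with R1881 and 1.74 with DMSO. ABCC4 was higher by 0.48 with R1881 and 0.78 with DMSO, and ABCC10 by 1.05 and 0.72. ABCC4 lies on chromosome 13, where 27.7% of 300 tested genes were higher in 42D with DMSO and the median log2 fold change was -0.44.

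ABCB11 and ABCA12 were the members lowest in 42D relative to LNCaP, ABCB11 by 3.53 with R1881 and 2.47 with DMSO, ABCA12 by 2.83 with R1881 and 1.84 with DMSO. ABCC8 was higher by 1.31 with R1881 and 0.66 with DMSO, ABCA2 by 0.34 and 0.35, and ABCA3 by 0.23 and 0.17. Lower in both treatments were ABCF1, ABCB10, ABCC5, ABCF2 and ABCD4, a lysosomal protein of cobalamin export, by 0.19 to 0.45 on the log2 scale. Called with R1881 and not with DMSO were ABCG4 (1.58), ABCC1 (0.50), ABCA7 (0.34) and ABCD3 (-0.19), and called with DMSO and not with R1881 were ABCA5 (-0.62) and ABCE1 (0.14). ABCE1, ABCF2, ABCA3, ABCA7 and ABCC5 lost at least 1 of these calls when a library was left out. Among uptake carriers, SLC22A3, an organic cation transporter, averaged 0.0799 CPM in 42D NT3 and 608 CPM in LNCaP NT3 with R1881, and the LXR gene NR1H3 was lower in 42D by 1.61 with R1881 and 1.70 with DMSO.

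**Figure D5:**
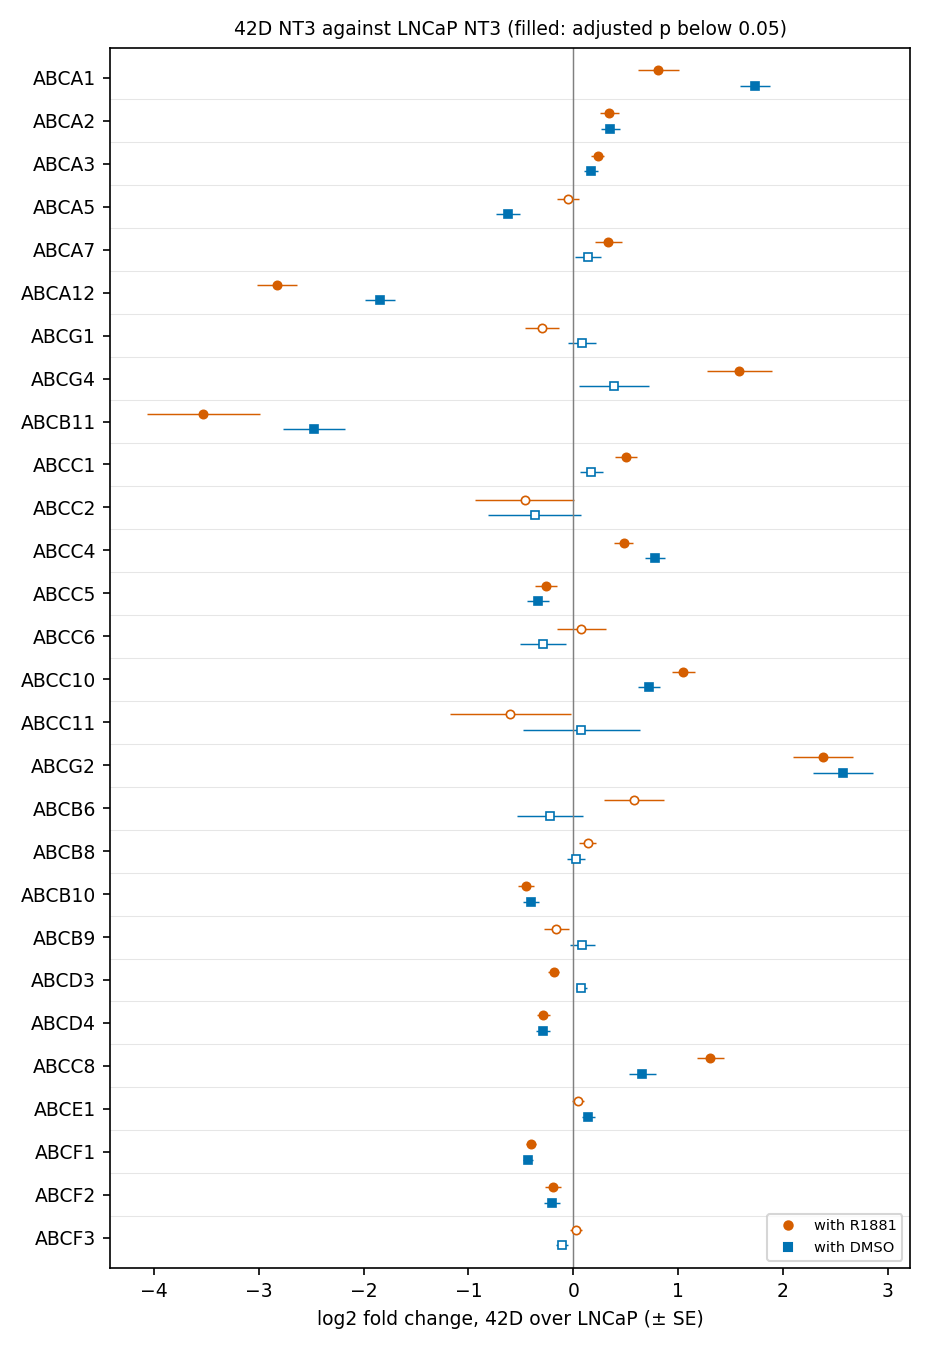
Log2 fold change of 42D NT3 over LNCaP NT3 for 28 tested ABC genes, with R1881 (circles) and DMSO (squares), with standard errors (3 libraries against 3). Filled points passed an adjusted p of 0.05. ABCG2 lies farthest right, and ABCB11 and ABCA12 farthest left.

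The R1881 response of NT3 differed between 42D and LNCaP in 5 of 30 members (2 higher and 3 lower in 42D, where 3.85% of all genes were called). The response of ABCA1 was stronger downward in 42D, by -0.92 (SE 0.25, adjusted p = 0.0232), as was that of ABCA12, by -0.98 (SE 0.26, adjusted p = 0.0195). ABCA5 (0.57, SE 0.15, adjusted p = 0.0248) and ABCC8 (0.65, SE 0.18, adjusted p = 0.0304) responded more upward in 42D, and ABCD3 (-0.27, SE 0.074, adjusted p = 0.0296) less. For ABCC4 and ABCC1 the difference was -0.29 (SE 0.13, adjusted p = 0.291) and 0.33 (SE 0.15, adjusted p = 0.303), and for ABCB11 -1.05 (SE 0.72, adjusted p = 0.582), none of which passed. Each of the 5 calls was lost in several of the 12 leave-one-out refits, and the count fell to 1 without 42D R1881 replicate 3, 42D DMSO replicate 3 or LNCaP R1881 replicate 1.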

How the data were processed

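Per the labels, polyadenylated RNA was made into stranded libraries and read as paired ends of 51 bases. Per the submitters' processing notes, reads were trimmed with cutadapt and aligned with HISAT2 2.1.0, with GRCh38 (hg38) named as the build. The authors deposited raw gene counts of 36 libraries, whole numbers with no scaling found in them. The counting tool, its strand setting and its annotation are not given in the sources used here, and 1 row without a name held 0 counts.

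From these counts, every comparison was fitted in R 4.3.3 by edgeR 4.0.16, using TMM scaling, filterByExpr on the groups and the 2-sided quasi-likelihood F test with robust estimation. Benjamini-Hochberg adjustment ran over all genes tested, 15519 in the 24 LNCaP libraries, 15403 in the 12 of 42D and 16564 in all 36, which entered comparisons between cell lines. The threshold was an adjusted p of 0.05. The SE is the log2 fold change divided by the root of F. Levels per kilobase used the exon lengths of GENCODE 29. The fitting script was tested on simulated data. Counting error in replicate pairs was exceeded in all of 36 pairs (chi-square per gene of 2.59 to 24.2).

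Each fit was repeated with DESeq2 1.42.0, with RLE scaling, without the filter, with only the libraries compared, with the replicate number as a block, with each library left out in turn (48 refits) and, for LNCaP sgT33-5, without the libraries of low mitochondrial share. Numbers were taken to pair libraries where all 3 same-numbered correlations of deviations from the group means passed 0.1: for R1881 in 42D sgT33-5, 42D NT3, F2 and LNCaP NT3, and for 42D sgT33-5 with R1881, LNCaP sgT33-5 with R1881, C2 with R1881 and F2 with DMSO (0.109 to 0.45). Members called in at least 1 comparison at 5 CPM or more are described in full. The members and lists were chosen with earlier results of these data known. The values of some members and listed genes are not reported here.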

Additional observations from a re-analysis of the deposited data

Results flagged for a closer look

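In NT3 cells, 5 members had an R1881 response that differed between 42D and LNCaP by a direct test of the difference. ABCA12 differed by -0.98 on the log2 scale, with means of 0.954 CPM with R1881 and 3.12 CPM with DMSO in 42D and 6.81 CPM and 11.1 CPM in LNCaP. ABCA1 differed by -0.92, with 6.16 CPM with R1881 and 29.2 CPM with DMSO in 42D and 3.49 CPM and 8.78 CPM in LNCaP. ABCA5 differed by 0.57, with 19 CPM and 10.7 CPM in 42D and 19.7 CPM and 16.5 CPM in LNCaP. ABCC8 differed by 0.65, with 30 CPM and 19.8 CPM in 42D and 12.1 CPM and 12.6 CPM in LNCaP. ABCD3 differed by -0.27, with 113.7 CPM and 108.1 CPM in 42D and 129.5 CPM and 102.5 CPM in LNCaP, again with R1881 before DMSO. The leave-one-out refits that lost these calls numbered 4 for ABCA12, 6 for ABCA1, 5 for ABCA5, 6 for ABCC8 and 9 for ABCD3, with adjusted p-values of 0.0528 to 0.185 among them.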

How the results depend on the processing

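Across the other settings tried, 45 counts of members called moved by more than 1.5 times, or to or from 0, and 220 did not. For LNCaP sgT33-5 against NT3 with DMSO (0 members), no filter gave 1, only the libraries compared 1 and the replicate block 2. With R1881 (2 members), only the libraries compared gave 0 and leaving out the 2 libraries of low mitochondrial share 0. For C2 against NT3 with R1881 (9 members) the replicate block gave 14. For the C2 response difference (0 members) no filter, DESeq2 and only the libraries compared gave 2 each and the replicate block 3. For 42D sgT33-5 against NT3 with DMSO (3 members) no filter gave 5 and the replicate block 7, and for its response difference (0 members) no filter and DESeq2 gave 1 each and the replicate block 2. Leaving out each library in turn gave 2 to 5 members for R1881 in C2, 3 to 6 for C2 with DMSO, 4 to 10 for F2 with R1881, 0 to 2 for LNCaP sgT33-5 with R1881, 1 to 3 for 42D sgT33-5 with DMSO, 0 to 1 for the response differences of C2 and of 42D sgT33-5, and 1 to 5 for the response difference of 42D and LNCaP. The cause was not tested. Under all alternatives run, 93 of 136 member calls were kept, none turned round, and the other 43 were lost in at least 1 leave-one-out refit.

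The replicate numbers paired the libraries in 8 of 21 comparisons. In the others the samples share only a number, and there the block added 16 member calls and removed 1, ABCA7 in F2 with R1881. In the paired comparisons it added 14 and removed none. Depth limits the 18 members under 1 CPM, the R1881 level of ABCB11 in 42D and the levels of ABCG2 in LNCaP.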
